A study of Mus musculus with 2 samples.

Results

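The respiratory chain was represented by 97 of the 32285 genes in the count matrices. These were chosen by symbol: every gene whose name begins with mt-, and the nuclear genes named as subunits of complexes I to V (Nduf, Sdh, Uqcr, Cox and Atp5 series), without Ndufa4l2. Of these, 84 are nuclear (36 of complex I, 4 of complex II, 8 of complex III, 19 of complex IV and 17 of complex V) and 13 are encoded on mitochondrial DNA (7 of complex I, 1 of complex III, 3 of complex IV and 2 of complex V). The nuclear and mitochondrial genes were described apart, because they are transcribed in different compartments by different polymerases.

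Complexes I to IV pass electrons from NADH and succinate to oxygen while complexes I, III and IV pump protons out of the mitochondrial matrix, and complex V, the ATP synthase, uses the returning protons to make ATP. Most subunits are made in the cytosol and imported, whereas the mitochondrial genome supplies a few membrane subunits at the core of complexes I, III, IV and V. Both strands of that genome are transcribed as long precursors that are cut into shorter RNAs, so its genes do not have separate promoters. In heart valves the cells that carry these genes are mainly matrix-producing fibroblasts (valve interstitial cells), resident macrophages and the endothelium that covers the leaflets.

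Mitral valve leaflets of mice 12 weeks old were digested with collagenase A and elastase, viable cells were sorted, and single-cell 3' libraries were sequenced, 1 from wild type control mice (WT, littermates) and 1 from Fbn1 mgR/mgR mice (mgR). The labels do not say how many animals gave the cells of each library; a figure legend for this experiment gives n = 3 without saying whether that counts animals pooled into each library. The mgR allele lowers expression of fibrillin-1, a microfibril protein of the extracellular matrix, throughout the animal, and these mice develop myxomatous valve degeneration; no treatment was given to either group. The libraries were made to look into mechanisms that accompany valve degeneration in which mTOR signalling takes part, by comparing the degenerating with the normal valve. With 1 library per genotype there is no replicate, no test of genotype was made, and every interval in parentheses is a 95% interval that covers counting error only; genotype, library and animal cannot be told apart.

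The WT library held 1104 barcodes and 5381844 UMIs (unique molecular identifiers, each standing for 1 captured RNA), and the mgR library held 3802 barcodes and 28215539 UMIs. Cells with 200 to 5000 detected genes and at most 10% mt- UMIs numbered 875 and 3438. Fibroblasts were cells with at least 10 UMIs of Col1a2, Col3a1 and Dcn, macrophages those with at least 10 UMIs of C1qa, C1qb and C1qc, and endothelium those with at least 2 UMIs of Pecam1 and Cdh5, with cells that passed more than 1 gate left out. This gave 322 WT and 879 mgR fibroblasts, 224 and 1539 macrophages, and 29 and 150 endothelial cells, whose median depths were 5182 and 6729, 6013 and 8325, and 4302 and 5221.5 UMIs. Of the cells that passed the endothelium gate, 28 WT and 304 mgR cells also passed the fibroblast gate alone.

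Markers outside the gates were examined in each class. Fibroblasts held 6945 and 6579 CPM (a gene's share of the class's pooled UMIs scaled to 1000000) of 6 further fibroblast markers, and 26.6 and 189.6 CPM of 6 macrophage markers. Macrophages held 13051 and 16933 CPM of the macrophage markers. Endothelium held 1344 and 1419 CPM of 7 endothelial markers beside 255 and 338 CPM of the fibroblast list, with Col1a1 and Dpt at 0 in WT and Fbln1 at 0 in mgR. It also held 238 and 119 CPM of the macrophage markers, 204 and 187 CPM of 3 leukocyte markers and 315 and 71.1 CPM of 4 red cell genes, and their part in the endothelial values was not tested. Fbn1, the targeted gene, had 171 CPM in WT and 135 CPM in mgR fibroblasts, a ratio of 0.790 (0.691 to 0.907). Both libraries held cells with Xist UMIs and no Y-linked UMIs (246 WT, 2091 mgR) and cells with the reverse (337 and 724), whereas the study's methods name male mice only. The mt- shares and the nuclear medians are therefore also given within each of these sets of cells.

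The mitochondrially encoded RNAs took a smaller share of UMIs in the mgR library in each of the 3 cell classes, and the nuclear members as a whole did not move with them. In fibroblasts the 13 mt- genes summed to 28285 CPM in WT and 18857 CPM in mgR, a ratio of 0.667 (0.660 to 0.674). In macrophages they summed to 23570 and 16830 CPM, a ratio of 0.714 (0.706 to 0.722). In endothelium they summed to 31706 and 21752 CPM, a ratio of 0.686 (0.662 to 0.711). The lower share was thus present in cells of mesenchymal, immune and endothelial type alike, and in cells that passed no gate, where the ratio was 0.692 (0.682 to 0.702). The cells that passed no gate were a mixture that differed between the libraries, with 3 neutrophil genes at 8036 CPM in WT and 3455 CPM in mgR. The part of that mixture in the ratio was not tested.

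The difference was visible cell by cell. The median WT fibroblast gave 2.73% of its UMIs to mt- genes (quartiles 2.14% and 3.53%) and the median mgR fibroblast 1.77% (1.28% and 2.45%). The median macrophage gave 2.27% (1.70% and 2.77%) in WT and 1.58% (1.21% and 2.02%) in mgR, and the median endothelial cell 3.37% and 2.03%. The middle ranges of the libraries overlapped in all 3 classes (endothelial quartiles 2.67% and 4.22% in WT, 1.40% and 2.88% in mgR), so single cells of either genotype could have the same share. With every cell thinned to 2000 UMIs, which left out 30 WT and 33 mgR fibroblasts, 6 and 24 macrophages and 8 and 9 endothelial cells as too shallow, the medians were 2.80% and 1.75%, 2.25% and 1.60%, and 3.30% and 1.95%. Counted per cell, the median fibroblast held 145 mt- UMIs in WT and 117 in mgR, while it held 87 and 109 UMIs of nuclear members. Shares of UMIs are relative, so fewer mitochondrial RNAs in a cell and more of all other RNAs cannot be told apart.

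**Figure D1:**
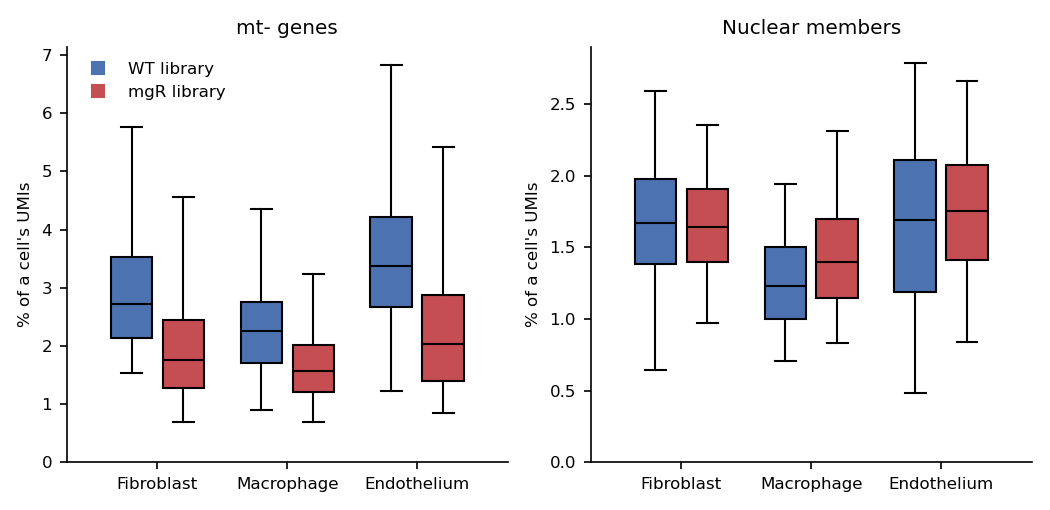
Share of each cell's UMIs in percent for mt- genes and for nuclear members, by cell class, with boxes at the quartiles and median and whiskers from the 5th to the 95th percentile of cells in each library. The mt- boxes sit lower in mgR in all 3 classes (fibroblast medians 2.73% and 1.77%), while the nuclear medians are 1.67% and 1.64% in fibroblasts, 1.23% and 1.40% in macrophages and 1.69% and 1.75% in endothelium.

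The lower mt- share was also examined in cells split by sex-linked transcripts. Among fibroblasts with Xist UMIs alone, mt- genes took 2.78% of pooled UMIs in WT (81 cells) and 1.93% in mgR (523 cells), and among those with Y-linked UMIs alone 2.80% (144 cells) and 1.77% (212 cells). In macrophages the same shares were 2.38% and 1.68% with Xist, and 2.38% and 1.69% with Y-linked UMIs. Within a library the cells of either kind thus had close mt- shares in these classes, and the lower mgR share was present in both. In endothelium the shares were 3.59% (9 cells) and 2.08% (89 cells) with Xist and 2.76% (7 cells) and 2.26% (26 cells) with Y-linked UMIs, so the size of the endothelial difference varied with the cells used.

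The 13 mt- genes did not all differ to the same extent. Of the NADH dehydrogenase subunits of complex I, mt-Nd4, a proton-pumping core subunit, had 2453 CPM in WT and 1761 CPM in mgR fibroblasts and 1646 and 1422 CPM in macrophages, log2 ratios of -0.48 and -0.21. The neighbouring pump subunits mt-Nd2 and mt-Nd5 had 2307 and 1529 CPM and 435 and 285 CPM in fibroblasts, log2 ratios of -0.59 and -0.61, and ratios of -0.29 and -0.52 in macrophages. mt-Nd1, which sits next to the quinone site of complex I, had 1290.3 and 1058 CPM in fibroblasts. In macrophages mt-Nd1 had 997 and 1019 CPM, a ratio of 1.02 (0.968 to 1.08), and was the only mt- gene of the 13 without a lower value in mgR macrophages. With the median of all genes tested in macrophages set to 0 its log2 ratio was -0.08.

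Cytochrome b and the cytochrome c oxidase subunits lay within a narrower range, apart from cytochrome b in endothelium. mt-Cytb, the membrane core of complex III, had 2848 and 2163 CPM in fibroblasts (log2 ratio -0.40), 2074 and 1599 CPM in macrophages (-0.37), and 2977 and 2742 CPM in endothelium, where its ratio of 0.921 (0.823 to 1.03) was the only one of the 13 whose interval held 1. mt-Co1, mt-Co2 and mt-Co3, which carry the copper and heme centres of complex IV and its membrane frame, had 3996 and 2807, 4285 and 2860.4, and 3286 and 2402 CPM in WT and mgR fibroblasts, log2 ratios of -0.51, -0.58 and -0.45. In macrophages the 3 ratios were -0.46, -0.46 and -0.33, and in endothelium -0.42, -0.48 and -0.47. These 3 genes therefore kept a narrow range in all classes.

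The largest differences were in the ATP synthase subunits and in short genes. mt-Atp6, the proton channel subunit, had 5784 and 3383 CPM in fibroblasts and 4982 and 2799 CPM in macrophages. It was the mt- gene with the most UMIs in WT macrophages, whereas in mgR macrophages mt-Co2 held more, at 3006 CPM. mt-Atp8, its partner in the stator, had 362 and 100.4 CPM in fibroblasts, 255 and 63.8 CPM in macrophages, and 425 and 116 CPM in endothelium, log2 ratios of -1.85, -2.00 and -1.88. mt-Nd4l and mt-Nd3, small membrane subunits of complex I, had 761 and 299 CPM and 412 and 178 CPM in fibroblasts, log2 ratios of -1.35 and -1.21, and ratios of -1.50 and -0.96 in macrophages. mt-Nd6, the only member on the other strand of the mitochondrial genome, had 64.5 and 32.6 CPM in fibroblasts, with 109 and 202 UMIs behind them. In macrophages mt-Nd6 took 0.162% of mt- UMIs in WT and 0.144% in mgR, a fold of 0.889, against 0.787 for the longer mt-Atp6.

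The UMIs counted for the mt- genes thus differed in their proportions to each other between the libraries. mt-Atp6 took 20.4% of mt- UMIs in WT and 17.9% in mgR fibroblasts, and 21.1% and 16.6% in macrophages. mt-Atp8 took 1.28% and 0.533% in fibroblasts and 1.08% and 0.379% in macrophages, and mt-Nd1 took 4.56% and 5.61%, and 4.23% and 6.06%. In endothelium mt-Cytb took 9.39% and 12.6%. The 4 genes under 600 nt (mt-Atp8, mt-Nd4l, mt-Nd3 and mt-Nd6) had a joint ratio of 0.381 (0.363 to 0.401) in fibroblasts, 0.384 (0.363 to 0.405) in macrophages and 0.423 (0.360 to 0.498) in endothelium. The 9 longer genes had joint ratios of 0.684 (0.676 to 0.691), 0.731 (0.723 to 0.740) and 0.701 (0.676 to 0.727), so the longer genes alone were lower in mgR too.

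**Figure D2:**
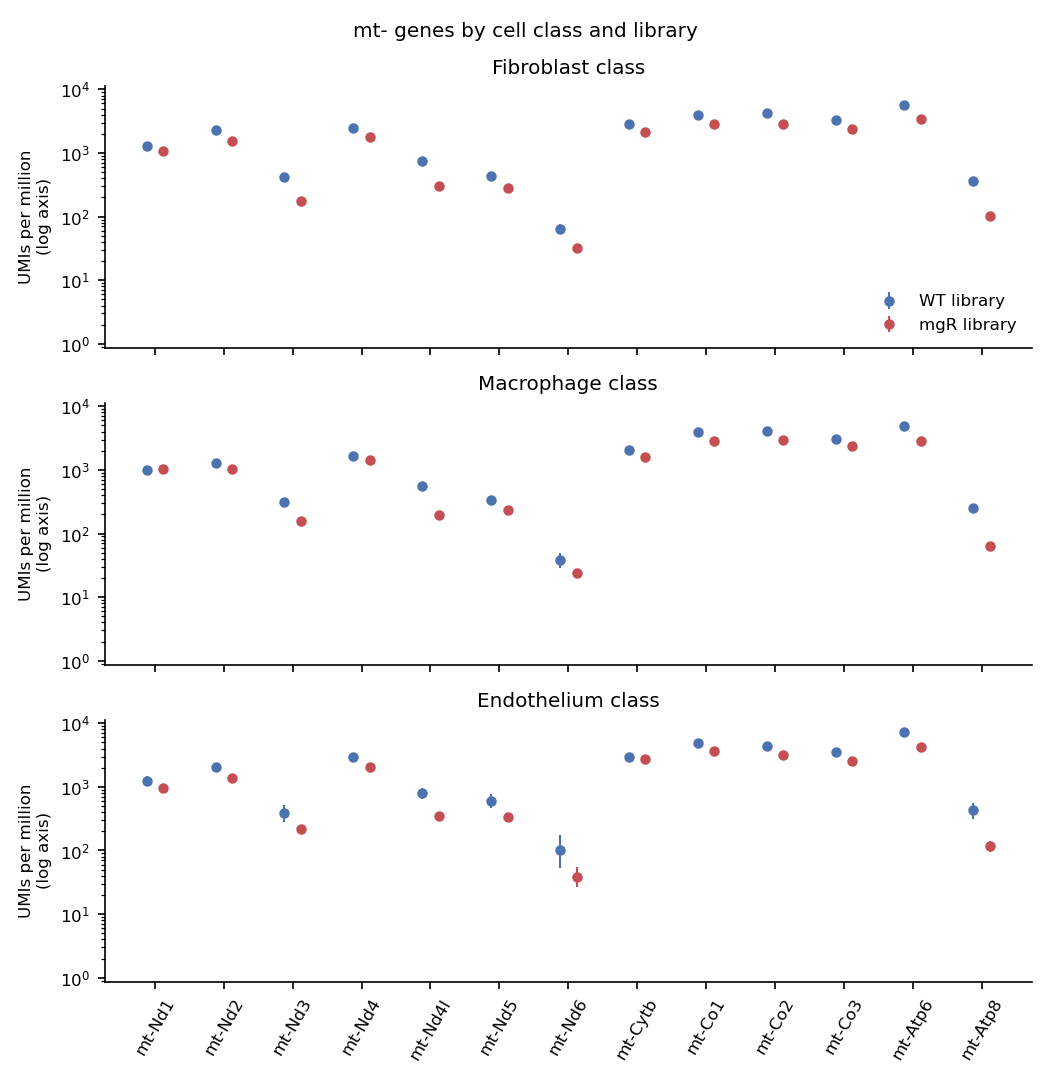
Level of each of the 13 mt- genes in CPM of all UMIs of the class, on a log axis, in WT and mgR fibroblasts, macrophages and endothelium, with 95% Poisson intervals for counting error. The mgR points lie below the WT points for 12 of 13 genes in macrophages, where mt-Nd1 had 997 and 1019 CPM, and for all 13 in fibroblasts and endothelium.

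The annotated lengths of the genes moved with these ratios. Over the 13 mt- genes the log2 ratio and the length had a Spearman correlation of 0.69 in fibroblasts, 0.70 in macrophages and 0.59 in endothelium, as a description over genes that share 1 pair of libraries. Genes outside the list that are shorter than 400 nt were lower in mgR too, with a median log2 ratio of -0.42 over 7 genes in fibroblasts and -0.49 over 7 in macrophages, whereas over all other genes the correlation was -0.24 and -0.08. mt-Atp8 (M:7766-7969) shares 43 nt with mt-Atp6, and mt-Nd4l shares 7 nt with mt-Nd4, so the shared bases do not tell the genes of a pair apart. The annotated lengths of these overlapping genes need not be those of the RNAs that were counted. Whether length or read assignment contributed to the low ratios of the short genes was not tested.

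**Figure D3:**
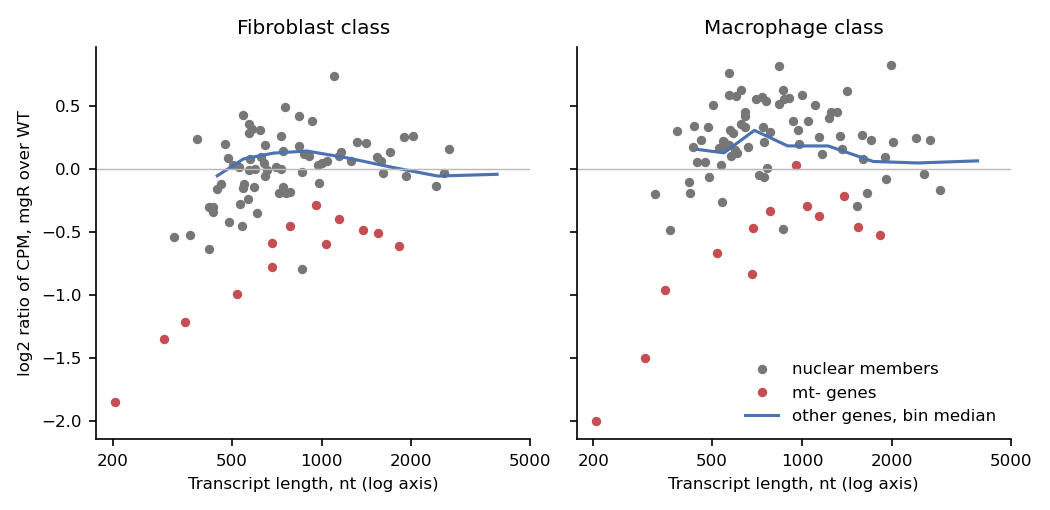
Log2 ratio of mgR over WT against annotated length in nt (log axis) for nuclear members and mt- genes in fibroblasts and macrophages, with a blue line for the medians of all other genes in length bins of at least 20 genes. mt-Atp8, mt-Nd4l and mt-Nd3 lie lowest, with mt-Atp8 at -1.85 and -2.00, and the mt- genes of at least 600 nt lie between 0.03 and -0.83. mt-Nd6, at 519 nt, lies below those longer genes in fibroblasts but above mt-Atp6 in macrophages.

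The nuclear members summed to close shares in the libraries in fibroblasts and endothelium, and to a higher share in mgR macrophages. Their sum was 16907 CPM in WT and 16783 CPM in mgR fibroblasts, a ratio of 0.993 (0.980 to 1.01). It was 17716 and 18137 CPM in endothelium, a ratio of 1.02 (0.978 to 1.07). It was 12964 and 15130 CPM in macrophages, a ratio of 1.17 (1.15 to 1.18), and the median macrophage gave 1.23% of its UMIs to nuclear members in WT and 1.40% in mgR. The number of mt- UMIs per nuclear member UMI was therefore lower in mgR in every class: 1.67 and 1.12 in fibroblasts, 1.82 and 1.11 in macrophages, and 1.79 and 1.199 in endothelium. Across single fibroblasts the shares of nuclear and mt- genes had Spearman correlations of -0.09 in WT and -0.18 in mgR, a description over cells that share the total as denominator.

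Single nuclear members were compared where they held at least 500 UMIs over both libraries in a class, and called higher or lower past a 1.2-fold ratio. In fibroblasts 71 of 84 reached that minimum, 11 held fewer UMIs, and Cox6a2 and Cox8c were at 0. The median log2 ratio was 0.03, against 0.01 for the 2415 genes tested. 11 members were higher, against 16.7% of all genes, 11 were lower, against 16.2%, and 49 lay within the fold. The shares of members past the fold were therefore close to those of fibroblast genes in general. Among fibroblasts with Xist UMIs alone the median was -0.12 over 57 members, against 0.02 for all genes, and among those with Y-linked UMIs alone it was -0.01 over 25, against 0.06, so its sign was not the same in every set of cells.

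The members that differed most in fibroblasts belonged to several complexes. Cox7a2l, a Cox7a2-like gene counted here with complex IV, had 178 CPM in WT and 298 CPM in mgR, a log2 ratio of 0.74 and a ratio of 1.67 (1.48 to 1.89). Cox4i1, the ubiquitous regulatory subunit of complex IV, had 508 and 715 CPM, a log2 ratio of 0.49. Ndufa11, an accessory subunit of the complex I membrane arm, had 168 and 227 CPM, a log2 ratio of 0.43. All 3 were named because their ratios were the highest, so intervals above 1 follow in part from that choice. The intervals cover counting error only.

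On the lower side, Ndufb1-ps had 208 and 119.95 CPM in fibroblasts, a log2 ratio of -0.79. It is annotated as a bidirectional promoter non-coding RNA (mm10 chromosome 12, 101968090 to 101977068, minus strand), so its name counts it as a subunit gene and its annotation does not. Ndufa1, an accessory subunit of complex I, had 198 and 128 CPM (-0.63), and Atp5k, a small membrane subunit of ATP synthase, had 175 and 121 CPM (-0.54). Short transcripts were again among the lower members: the 3 nuclear members under 400 nt had a median of -0.52 and the 9 between 400 and 500 nt a median of -0.30, while the 9 between 800 and 1000 nt had a median of 0.11. Not every member followed length, since Ndufb1-ps is 861 nt long and Ndufa6, at 382 nt, had a log2 ratio of 0.24. Genes outside the list between 400 and 500 nt had a median of -0.05 over 22. Over the 71 members the Spearman correlation of length and log2 ratio was 0.37.

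By complex, the fibroblast medians stayed close to 0. The counts below stand beside 16.7% higher and 16.2% lower over all fibroblast genes tested. Complex I had a median of 0.05 over 34 members, with 4 higher and 3 lower. Complex III had -0.06 over 6, with 2 lower, Uqcr10 and Uqcrb, small subunits of the cytochrome bc1 complex. Complex IV had 0.05 over 13, with 4 higher and 2 lower, and complex V had -0.03 over 17, with 3 higher and 4 lower. Sdhb, the iron-sulphur subunit of complex II, was the only one of the 4 succinate dehydrogenase genes above the minimum, with 86.5 and 93.3 CPM. Complex V thus held members on both sides, with Atp5o, the stalk subunit, at 142 and 191 CPM (0.43) and Atp5md, a small membrane subunit, at 199 and 138 CPM (-0.52).

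In macrophages the balance differed. Of 76 members that reached the minimum, 35 were higher in mgR, against 31.8% of the 3807 genes tested, 3 were lower, against 14.9%, and 38 lay within the fold. The median log2 ratio was 0.24, against 0.11 for all genes. With that all-gene median set to 0 the members' median was 0.13, with 24 higher and 8 lower of 76, against 21.0% and 22.4% of all genes on that scale. With each ratio taken relative to other genes of similar transcript length, an alternative chosen after the data were seen, the median was 0.09. Among macrophages with Xist UMIs alone the median was 0.24 over 72 members, and among those with Y-linked UMIs alone 0.31 over 41, against 0.11 and 0.10 for all genes.

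By ratio of summed CPM, macrophage values were highest in complexes I, IV and II, the last from 4 genes with only 242 CPM in WT and 292 CPM in mgR. The 36 nuclear complex I genes summed to 3416 CPM in WT and 4257 CPM in mgR, a ratio of 1.25 (1.21 to 1.28). Of 35 tested, 20 were higher and 2 lower, against 31.8% and 14.9% of all genes. With the all-gene median set to 0 these were 14 and 2, against 21.0% and 22.4%. Complex II summed to a ratio of 1.205 (1.08 to 1.35), complex IV to 1.21 (1.18 to 1.25), complex III to 1.11 (1.06 to 1.16) and complex V to 1.07 (1.05 to 1.104). With the all-gene median set to 0 the complex medians were 0.19 for I, 0.22 for II and 0.17 for IV, but -0.04 for III and -0.03 for V, so the direction of complexes III and V depends on that scaling.

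Among single genes, Sdhc, a membrane anchor of succinate dehydrogenase, had 31.2 and 56.0 CPM in macrophages, a log2 ratio of 0.83 and a ratio of 1.80 (1.33 to 2.48). Atp5o, the stalk subunit that links the catalytic head of ATP synthase to its base, had 92.1 and 163 CPM (0.82). Cox6a1, the common form of a small complex IV subunit, had 141 and 239.7 CPM (0.77). Among the catalytic and core subunits the picture was mixed, with Cox5a at 262 and 331 CPM (0.34) and Sdhb at 99.7 and 119 CPM (0.25) on the higher side. Atp5a1 and Atp5b, which form the catalytic head, lay at -0.04 and -0.08, and Uqcrfs1, the Rieske iron-sulphur protein, at 0.16 with an interval of the ratio that held 1 (0.915 to 1.39).

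The 3 lower members were Atp5md, a small ATP synthase subunit, with 187 and 134 CPM (-0.48), Ndufb1-ps with 193 and 139 CPM (-0.48), and Ndufv1, the subunit of complex I that binds NADH and its flavin, with 41.5 and 34.3 CPM (-0.29). The ratio of Ndufv1 was 0.825 (0.629 to 1.099), which holds 1, and it rests on 60 WT UMIs. Sdha, the flavoprotein of succinate dehydrogenase, and Uqcrc1, a core protein of complex III, had 73.4 and 65.7 CPM and 59.5 and 52.5 CPM, with intervals that also held 1. Ndufs1, the largest iron-sulphur subunit of complex I, was under the minimum in both classes, with 39 and 294 UMIs in macrophages and 59 and 160 UMIs in fibroblasts.

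**Figure D4:**
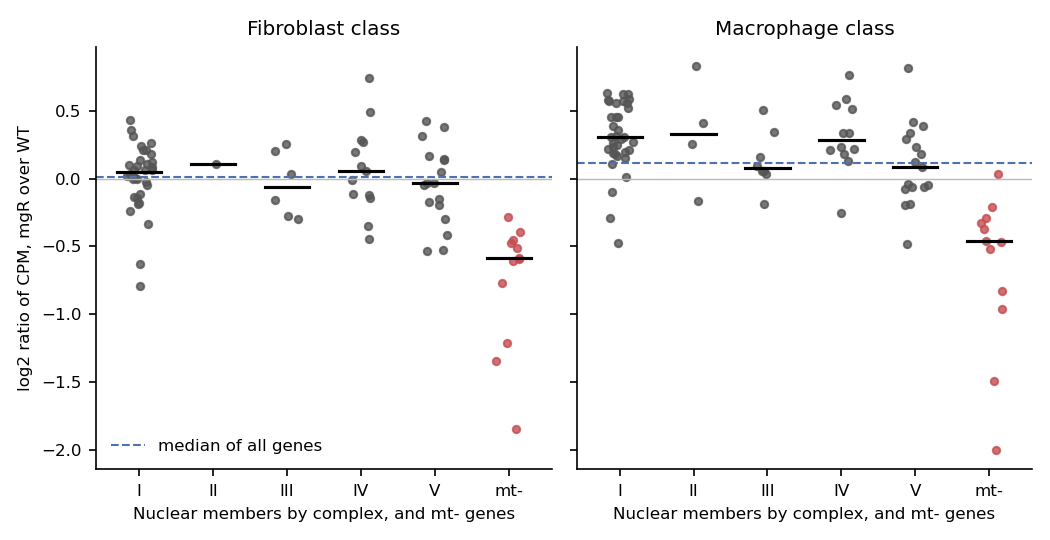
Log2 ratio of mgR over WT for each nuclear member and mt- gene with at least 500 UMIs in the class, grouped by complex, in fibroblasts and macrophages, with black lines for group medians and dashed lines for the median of all genes tested. In macrophages most nuclear complex I members lie above 0 (20 of 35 past 1.2-fold higher, against 31.8% of all genes). In fibroblasts they spread around 0 (4 higher and 3 lower, against 16.7% and 16.2% of all genes). The mt- medians lie lowest in both, although single mt- genes such as mt-Nd1 (-0.29 and 0.03) lie among the nuclear members.

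The content of the macrophage class differed between the libraries in other ways. The macrophage marker sum was 13051 CPM in WT and 16933 in mgR, 4 red cell genes summed to 193 and 1156 CPM, 3 neutrophil genes to 2.77 and 81.5 CPM, and 6 stress genes to 2533 and 1959 CPM. Their part in the nuclear member values was not tested. With ribosomal, haemoglobin, mt- and gate genes taken out of the total, the macrophage median was 0.24, as with the full total. That change rescales all genes alike and keeps the same cells, so it does not show the part of this content.

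Fibroblasts and macrophages were then set side by side. Of 70 nuclear members tested in both, 8 were past the fold higher in both, against 9.84% of the 1911 genes tested in both, and 2 lower in both, against 4.76%. 21 members (30.0%) lay above 0 in macrophages and below 0 in fibroblasts, with 1 the reverse, against 25.4% and 9.52% of all genes. With the all-gene median of each class set to 0 these were 18 and 4 members, against 19.0% and 14.5%. Uqcr10, a small subunit of complex III, was the only member past the fold in opposite directions, with 223 CPM in WT and 181 CPM in mgR fibroblasts and 152 and 193 CPM in macrophages. Its log2 ratios were -0.30 and 0.34, the latter 0.23 with the all-gene median set to 0, which is within the fold. The difference between the classes was not tested.

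Endothelial values rest on 29 WT cells, so only 6 nuclear members reached the minimum. Cox4i1 had 621 and 839 CPM, a log2 ratio of 0.43, and was the 1 member past the fold higher, against 37.6% of the 258 genes tested. Cox7c and Cox6c, small complex IV subunits, had 765 and 498 CPM (-0.63) and 739.9 and 550.3 CPM (-0.43) and were the 2 past the fold lower, against 14.3%. Cox8a, Atp5h and Atp5e lay within the fold, at 0.15, 0.05 and -0.12. Over all cells that passed the endothelium gate, which adds cells that also passed the fibroblast gate, 46 members reached the minimum with a median of 0.08, against 0.07 for all genes.

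The cell classes also differed from each other within each library. Between macrophages and fibroblasts 78 nuclear members were tested at a fold of 1.5 in both libraries. The only member past it higher in macrophages was Cox5a, a heme-side subunit of complex IV, against 24.0% of the 5504 genes tested, and 11 were past it lower, against 24.5%. The 11 lower members were 9 of complex I together with Cox6c and Cox4i2. The median log2 difference of the nuclear members was -0.37 in WT and -0.17 in mgR, against -0.16 and -0.02 for all genes.

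Among the nuclear members, complex I held most of those past the fold lower in macrophages. Its 36 nuclear genes had a median of -0.66 in WT and -0.35 in mgR, and 30 of 36 (83.3%) were lower in macrophages than in fibroblasts in both libraries, against 47.7% of the 5504 genes tested. Lower values were not particular to complex I. Genes of the mitochondrial ribosome had medians of -0.62 and -0.26 over 56, with 42 (75%) lower and 2 higher in both libraries. Assembly factors of the chain had -0.78 and -0.32 over 17, with 11 (64.7%) lower and 4 higher. Ndufb2 and Ndufa5, accessory subunits, had differences of -1.39 and -1.01 and of -1.095 and -0.80. Complexes III, IV and V had medians of -0.25, -0.20 and -0.18 in WT and of -0.00049, 0.01 and -0.05 in mgR. Next to Cox5a, at 0.90 and 1.05, the highest members were Uqcrfs1 at 0.37 and 0.35 and Sdhb at 0.21 and 0.35. Of the 13 mt- genes 11 (84.6%) were lower in macrophages in both libraries, against the same 47.7%, and 0 passed 1.5-fold.

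Endothelium and fibroblasts lay closer. Of 73 nuclear members tested, 1 was past 1.5-fold higher in endothelium in both libraries, against 13.1% of 2753 genes, and 1 was lower, against 16.3%. The higher member was Atp5b, the catalytic beta subunit of ATP synthase, at log2 differences of 0.59 and 0.60, and the lower one was Cox4i2. Uqcrq and Uqcr11, small complex III subunits, followed at 0.55 and 0.51 and at 0.86 and 0.43. Ndufb2 and Ndufb10, accessory subunits of complex I, lay at -1.55 and -0.42 and at -0.52 and -0.30. The medians of the nuclear members were 0.17 in WT and 0.10 in mgR, against 0.07 and 0.08 for all genes.

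Several complex IV subunits exist as a common form and a second form known from muscle, lung or testis, and these second forms held few UMIs here, with Cox4i2 and Cox8b counted mainly in fibroblasts. Cox4i2, the form known from lung and from oxygen-sensing cells, had 65.1 CPM in WT and 78.7 CPM in mgR fibroblasts, a ratio of 1.21 (0.980 to 1.499). It had 1 and 4 UMIs in macrophages and 0 and 2 in endothelium. Thinned to 2000 UMIs, 11.3% of 292 WT and 12.9% of 846 mgR fibroblasts held a Cox4i2 UMI (exact binomial intervals 7.91 to 15.5% and 10.7 to 15.3%), against 0 of 218 WT macrophages, which at a limit of 3 counts allows up to 1.38%, and 1 of 1515 mgR macrophages. The macrophages had the higher median depth, 6013 and 8325 UMIs against 5182 and 6729 in fibroblasts. Its common partner Cox4i1 was present in every class, with 63.0% and 70.6% of thinned fibroblasts and 57.3% and 74.8% of thinned macrophages holding a UMI.

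Fibroblasts with a Cox4i2 UMI were compared with the rest, as a description of cells that also differ in depth (median 5743.5 and 5147 UMIs in WT, and 7594 and 6356 in mgR). Prg4, the lubricant proteoglycan lubricin, had 3157 CPM in WT fibroblasts with a Cox4i2 UMI and 2185 CPM in those without, and 3538 and 2030.0 CPM in mgR. Fmod, which encodes the collagen-binding proteoglycan fibromodulin, had 234 and 83.1 CPM in WT and 281 and 206 CPM in mgR. Rgs5, a pericyte gene, had 66.8 and 81.6 CPM in WT and 130.2 and 53.2 CPM in mgR, so its direction was not shared by the libraries. Acta2, a smooth muscle actin that activated fibroblasts also express, had 79.6 and 72.3 CPM in WT and 132 and 84.1 CPM in mgR. Myh11, a smooth muscle marker, was at 0 in both sets of WT fibroblasts and had 5.04 and 2.24 CPM in mgR, from 11 and 9 UMIs. Kcnj8, listed with Rgs5, Acta2 and Myh11, had 12.8 and 20.01 CPM in WT and 28.9 and 30.1 CPM in mgR. Pdgfrb had 188 and 255 CPM in WT and 129 and 140 CPM in mgR, and Pdgfra 162 and 219, and 86.6 and 120 CPM. Cspg4 had 7.71 and 5.39 CPM in WT, from 3 and 7 UMIs, and 15.6 and 9.20 CPM in mgR. Kcnj8, Pdgfrb and Pdgfra were thus lower in fibroblasts with a Cox4i2 UMI in both libraries, and Cspg4 was higher.

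The pair Cox8a and Cox8b encodes the ubiquitous and the heart and skeletal muscle form of the smallest complex IV subunit. Their promoter windows are shown because only the first was broadly present in these cells. Each runs from 250 bases before to 50 bases after the RefSeq start (GRCm38.p6), is written 5' to 3' on the gene's strand, and has in capitals the searched letters: CTTCCGG, the reverse complement of the ETS-family letters CCGGAAG, at Cox8a (chr19:7217567-7217866, minus strand), and the TATA box letters TATAAA at Cox8b (chr7:140900397-140900696, minus strand).
Cox8a: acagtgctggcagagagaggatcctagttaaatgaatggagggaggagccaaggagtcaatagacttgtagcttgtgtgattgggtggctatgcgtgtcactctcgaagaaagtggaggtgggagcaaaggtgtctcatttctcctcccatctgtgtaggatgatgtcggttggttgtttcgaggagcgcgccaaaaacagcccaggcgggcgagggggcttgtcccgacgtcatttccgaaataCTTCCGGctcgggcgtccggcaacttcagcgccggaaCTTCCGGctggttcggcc
Cox8b: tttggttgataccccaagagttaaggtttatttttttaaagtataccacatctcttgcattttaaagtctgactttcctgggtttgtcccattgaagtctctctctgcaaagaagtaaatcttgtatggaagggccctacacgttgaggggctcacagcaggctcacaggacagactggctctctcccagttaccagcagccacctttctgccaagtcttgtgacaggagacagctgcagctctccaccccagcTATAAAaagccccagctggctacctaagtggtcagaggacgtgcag
The Cox8a window had 2 such ETS matches, with first bases at -5 and 33 relative to the start, and 56% G and C. The Cox8b window had its TATAAA at position 5 and 48.3% G and C. Searched on both strands, CCGGAAG was present in 17 of 72 member windows (23.6%) and 8.86% of all 32851 windows, and TATAAA in 9 (12.5%) and 13.6%. GCATGCGC, letters of the NRF1 site, was in 10 member windows (13.9%) and 2.71% of all, and AAGATGGC, letters of the YY1 site, in 9 (12.5%) and 2.75%. The 72 windows belong to 67 members. Their median G and C content was 57.3%, against 52.7% over all windows, and its part in these shares was not tested. A match is a description of the letters and not evidence of binding.

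Cox8a had 652 and 603 CPM in fibroblasts, 523 and 607 CPM in macrophages and 527 and 588 CPM in endothelium, so it lay at a similar level in each class and library. Cox8b had 21.3 CPM in WT (36 UMIs) and 11.1 CPM in mgR fibroblasts (69 UMIs), a ratio of 0.522 (0.344 to 0.804). It had 0 and 1 UMI in macrophages and 0 in endothelium of both libraries, where 3 UMIs would be 25.5 and 3.44 CPM. Thinned to 2000 UMIs, 4.11% of WT and 1.89% of mgR fibroblasts held a Cox8b UMI (intervals 2.14 to 7.07% and 1.08 to 3.05%), which overlap. Of 7 cardiomyocyte markers in fibroblasts, Myh6 and Actc1 were at 0 in both libraries, 5 were at 0 in WT, and the list summed to 30.8 and 27.7 CPM. Tnnt2 held most of that sum, with 28.4 CPM (48 UMIs) in WT and 24.2 CPM (150 UMIs) in mgR.

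The other second forms were rare. Cox6a2, the heart and muscle partner of Cox6a1, had 0 UMIs in fibroblasts of both libraries, which allows up to 1.78 and 0.484 CPM, and 1 and 32 UMIs in macrophages, the latter in 22 of 1539 cells. Cox7a1, the heart and muscle partner of Cox7a2, had 3 and 12 UMIs in fibroblasts and 10 and 66 in macrophages. Cox6b2, known from testis, had 13.6 and 15.8 CPM in fibroblasts and 2.77 and 8.18 CPM in macrophages. In WT its 23 fibroblast UMIs came from 10 cells. Their common partners were well counted. Cox7a2 had 308 and 307 CPM in fibroblasts and 234 and 266 CPM in macrophages, and Cox6b1 284 and 303 CPM and 325 and 412 CPM.

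**Figure D5:**
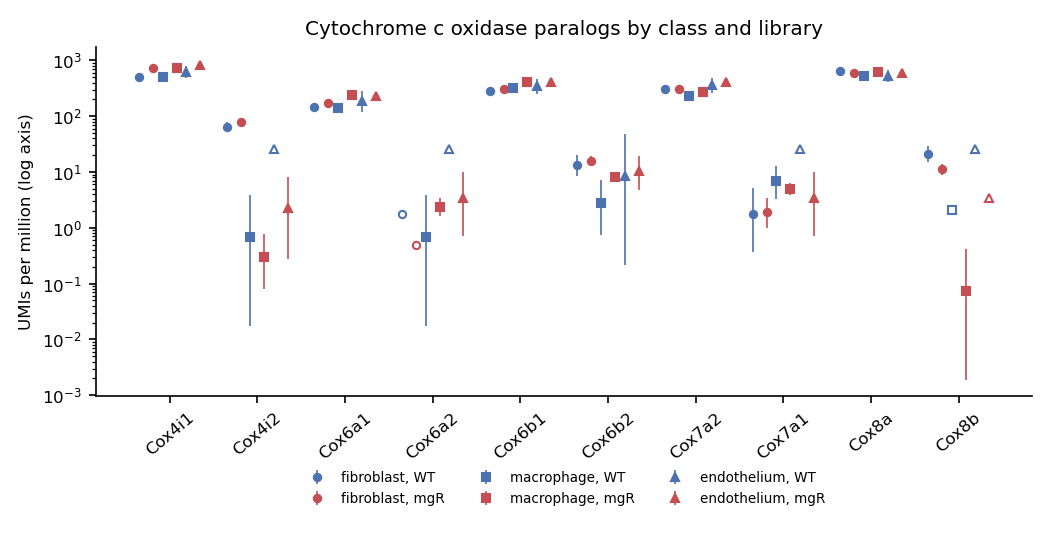
Level of common and second forms of complex IV subunits in CPM on a log axis, by cell class and library, with 95% Poisson intervals; open symbols stand at the limit that 3 counts would give where the sum is 0. The common forms lie above 140 CPM in every class, Cox4i2 reaches 65.1 and 78.7 CPM in fibroblasts, and Cox8b and Cox6b2 lie below 25 CPM there.

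Subunit c of ATP synthase, the ring of its rotor, is encoded by 3 genes that give 1 mature protein. Atp5g1 had 254 and 285 CPM in fibroblasts and 212 and 249.7 CPM in macrophages. Atp5g2 had 259 and 323 CPM and 296 and 363 CPM, log2 ratios of 0.32 and 0.29, and Atp5g3 had 176 and 155 CPM and 165 and 159.8 CPM. Atp5g2 was thus past 1.2-fold higher in both classes and Atp5g3 below 0 in both, the latter within the fold. With the all-gene median set to 0, Atp5g2 in macrophages lay within the fold.

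Other mitochondrial genes were examined as lists. In macrophages the mitochondrial ribosome had a median log2 ratio of 0.38 over 40 genes, with 27 higher and 1 lower, and mitochondrial antioxidants a median of 0.45 over 6, with 4 higher. Assembly factors of the chain had 0.29 over 9, with 5 higher and 2 lower, electron carriers 0.16 over 5, with 1 higher, and the tricarboxylic acid cycle 0.13 over 9, with 1 higher and 1 lower. Genes for expression of mitochondrial DNA had 0.17 over 3, with 1 higher, biogenesis regulators 0.10 over 3, and cytosolic ribosomal proteins 0.04 over 84, with 20 higher and 11 lower. These values stand beside a median of 0.11 for all macrophage genes, of which 31.8% were past the fold higher and 14.9% lower, and the medians of the lists of imported mitochondrial ribosome and complex I subunits were both above that median.

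In fibroblasts the same lists lay near 0, except cytosolic ribosomal proteins. These had a median of 0.24 over 80 genes, with 35 higher and 9 lower, against a median of 0.01 and shares of 16.7% and 16.2% for all fibroblast genes. The mitochondrial ribosome had 0.04 over 24, with 5 higher and 1 lower, assembly factors -0.07 over 7, with 1 lower, and electron carriers 0.16 over 5. Antioxidants had 0.13 over 3, with 1 higher, biogenesis regulators 0.07 over 2, the tricarboxylic acid cycle 0.01 over 2, and genes for mitochondrial DNA expression 0.02 over 1.

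Single genes that govern or serve the chain were less precisely measured. Cycs, cytochrome c, had 98.3 and 105 CPM in fibroblasts and 116 and 125 CPM in macrophages. Tfam, which packages and transcribes mitochondrial DNA, had 38.5 and 34.0 CPM in fibroblasts, a ratio of 0.884 (0.666 to 1.19), and 15.2 and 13.1 CPM in macrophages, 0.859 (0.550 to 1.41). Nrf1, a transcription factor for nuclear subunit genes, had 16.6 and 14.7 CPM in fibroblasts, and Esrra, the estrogen-related receptor alpha, had 7.11 and 11.3 CPM, a ratio of 1.59 (0.854 to 3.22). The intervals of these 4 genes held 1 in fibroblasts, and the wide ones leave the size of a difference unknown. Ppargc1a, the coactivator PGC-1alpha, had 7 and 10 UMIs in fibroblasts, a ratio of 0.389 (0.134 to 1.204), and 0 in macrophages of both libraries.

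Ucp2, an uncoupling carrier of the inner membrane that macrophages express strongly, had 660.4 and 690.1 CPM in macrophages, a ratio of 1.04 (0.977 to 1.12). In fibroblasts it had 6.51 CPM (11 UMIs) in WT and 20.3 CPM (126 UMIs) in mgR, a ratio of 3.12 (1.68 to 6.41). The 6 macrophage markers in the fibroblast class summed to 26.6 CPM in WT and 189.6 CPM in mgR. Lyz2, lysozyme, held most of that sum, with 15.4 and 173 CPM. Of the other 5, Cd68 had 8.29 and 5.80 CPM, Csf1r 2.37 and 7.09 CPM, Mrc1 0.592 and 2.10 CPM, and Adgre1 and Fcgr1 were at 0 in WT and below 1 CPM in mgR. Their part in the Ucp2 value was not tested.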

How the data were processed

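Libraries were made with the 10x Genomics 3' v3 protocol and, per the labels, processed by the authors with Cell Ranger 7.1.0 on mm10; the annotation release and intron setting were not given in the sources used here. The deposited matrices hold UMI counts per gene and cell, with no normalization. The analysis used Python 3.11.15, numpy 2.4.6, pandas 2.3.3, scipy 1.17.1 and scanpy 1.11.5. Cells and classes were selected as described above, counts were pooled per library and class and scaled to CPM, and log2 ratios used a prior count of 0.5. Ratios have exact conditional binomial intervals and levels exact Poisson intervals. A class difference had to pass 1.5-fold in both libraries. Named genes were all mt- genes, the 3 highest and 3 lowest nuclear members per comparison whose direction was shared by the mean of per-cell shares, subunit paralogs, catalytic subunits and 6 regulators or carriers; Uqcrb, Atp5md in fibroblasts, Atp5o in fibroblasts, mt-Co2 in mgR macrophages and the markers of Cox4i2 cells and the macrophage markers beside Ucp2 were named after their values were seen. Members and lists were chosen with earlier results of these data known. Lengths and positions came from the mouse GENCODE annotation of the same build, which held all 97 members, and promoters from RefSeq. Scrublet, run without the limit on mt- UMIs, marked 11 of 912 WT and 57 of 3540 mgR barcodes. Of these, 11 and 55 were among the kept cells, and the mark itself removed no cell. The libraries shared 2 barcodes, 0 of them among kept cells. The procedure was tested on simulated counts.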

Additional observations from a re-analysis of the deposited data

Results flagged for a closer look

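Uqcr10, a small subunit of complex III, was picked out because its ratio of mgR over WT pointed in opposite directions in the cell classes. Its log2 ratio was -0.30 in fibroblasts, with 376 WT and 1125 mgR UMIs, and 0.34 in macrophages, with 219 and 2595 UMIs. The difference between the classes was not tested, since each rests on 1 library per genotype. The transcript is 434 nt long, and the 9 nuclear members between 400 and 500 nt had median log2 ratios of -0.30 in fibroblasts and 0.06 in macrophages.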

How the results depend on the processing

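The mt- sum stayed below 0 in 15 of 15 recomputations in fibroblasts, 14 of 14 in macrophages and 16 of 16 in endothelium, and within its counting interval in 5, 8 and 11 of them. In fibroblasts its log2 ratio, -0.58 as reported, was -0.56 with mt-, ribosomal, haemoglobin and gate genes out of the total, with mt- UMIs at most 5% and as the mean of per-cell shares, -0.60 at most 20%, -0.61 with no limit, -0.53 with cells passing more than 1 gate, -0.55 thinned and without mt- genes under 600 nt, -0.53 in Xist-only and -0.66 in Y-only cells. In macrophages, -0.49 as reported, it was -0.60 with the median of gene ratios at 0, -0.44 at most 5%, -0.50 at most 20% and with doubled gates, -0.51 thinned and -0.45 without the short genes. In endothelium, -0.54 as reported, it was -0.72 with the median at 0, -0.44 with doubled gates, -0.43 thinned, -0.79 in Xist-only and -0.29 in Y-only cells. Each cause was not tested. The nuclear median ranged from -0.12 to 0.07 in fibroblasts (14 above 0, 3 below), from 0.09 to 0.31 in macrophages (16 of 16 above 0) and from -0.21 to 0.16 in endothelium (4 above, 10 below). Its sign thus varied with the setting in fibroblasts and endothelium and was shared in macrophages. Every recomputation reuses the same pair of libraries, so a shared sign does not settle a direction by genotype. Past 1.1-fold, 21 members were higher in fibroblasts and 20 lower (31.4% and 28.0% of all genes) and 53 and 8 in macrophages (46.7% and 23.5%); past 1.5-fold, 1 and 2 in fibroblasts (3.06% and 2.94%) and 8 and 0 in macrophages (8.41% and 4.10%). The 11 members lower in macrophages than fibroblasts became 14 with the other total. No endothelial nuclear median could be had when thinned or in Xist-only or Y-only cells, since no member reached 500 UMIs. No paired analysis was possible because each genotype has 1 library and no result comes from a test. The short genes and the length comparison were chosen after the data were seen. With 29 WT cells, endothelium held the fewest pooled UMIs of the gated cell classes, 117580 in WT and 872287 in mgR.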

Other observations

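Cells that passed no gate, 267 in WT and 522 in mgR, had median mt- shares of 2.37% and 1.501%, and 1.31 and 0.929 mt- UMIs per nuclear member UMI, the lowest of the groups of cells examined. Their nuclear members summed to a ratio of 0.978 (0.963 to 0.994). These cells held 8036 and 3455 CPM of 3 neutrophil genes, 1712 and 304 CPM of 4 melanocyte genes and 932 and 573 CPM of 4 T cell genes. Red cell genes, 4 in number, summed to 10854 and 11142 CPM. The part of this mixture in the values was not tested.

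Barcodes within the gene range but above 10% mt- UMIs numbered 37 in WT (4.06%) and 102 in mgR (2.88%). Their median depths were 915 and 900.0 UMIs and their median mt- shares 16.6% in each library. Among them, 14 WT and 15 mgR barcodes passed the fibroblast gate, and the median share of nuclear members was 0.215% in the WT and 0.601% in the mgR ones, against 1.67% and 1.64% in kept fibroblasts.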
